A study of Mus musculus with 6 samples.

Results

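Catecholamine enzymes were followed in whole adrenal glands of 2 mouse strains, BPH, which is hypertensive, and BPL, which is hypotensive. The genes are those that make the catecholamines (Th, Ddc, Dbh and Pnmt), that supply electrons for their synthesis inside the storage granule (Cyb561), and that inactivate them (Maoa and Sult1a1). Members were all probe sets of the Affymetrix MG_U74Av2 array whose platform annotation names exactly 1 gene, that gene being 1 of these 7. A probe set is a group of short oligonucleotides that together query 1 transcript. The rule gave 11 probe sets of 6 genes, out of 12488 probe sets on the array, of which 10855 name a single gene. Th and Ddc have 1 probe set each, Pnmt, Cyb561 and Sult1a1 have 2 each, and Maoa has 3. Dbh was not analysed here.

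There were 3 arrays per strain, each with total RNA of adrenal glands. The labels give no age, sex, treatment or pooling, and they do not say whether the replicates came from separate animals, so the p-values measure only the spread between these arrays. The comparison asks whether transcripts of these enzymes differ between a strain with high and a strain with low blood pressure. Levels are the deposited linear intensities, and a log2 difference is positive where BPH was higher.

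Chromaffin cells of the adrenal medulla build catecholamines from tyrosine. Tyrosine hydroxylase (Th) makes DOPA, and aromatic amino acid decarboxylase (Ddc) turns it into dopamine. Inside the chromaffin granule dopamine beta-hydroxylase (Dbh) makes noradrenaline, using ascorbate that cytochrome b561 (Cyb561) keeps reduced by passing electrons across the granule membrane. Phenylethanolamine N-methyltransferase (Pnmt) then methylates noradrenaline to adrenaline, and its expression is known to depend on glucocorticoid from the surrounding cortex. Monoamine oxidase A (Maoa), on the outer membrane of mitochondria, and the phenol sulfotransferase Sult1a1 take part in breakdown, and both are also made in many cells other than chromaffin cells.

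The RefSeq promoter table (GRCm38.p6) held entries for 5 of the 7 genes (Th, Ddc, Dbh, Maoa and Sult1a1), with 2 entries for Ddc. The stretches of 250 bases before the start site are shown for Th, the first enzyme of the pathway, and for both entries of Ddc, the enzyme that follows it. They are stretches of the reference genome, and the promoter sequences of BPH and BPL were not read. All are on the minus strand and are written 5′ to 3′ along the gene. The Th stretch lies at chr7:142899996-142900245, and the Ddc stretches at chr11:11898145-11898394 (upstream) and chr11:11890409-11890658 (downstream). Capitals mark matches to any of 4 motifs.

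Th: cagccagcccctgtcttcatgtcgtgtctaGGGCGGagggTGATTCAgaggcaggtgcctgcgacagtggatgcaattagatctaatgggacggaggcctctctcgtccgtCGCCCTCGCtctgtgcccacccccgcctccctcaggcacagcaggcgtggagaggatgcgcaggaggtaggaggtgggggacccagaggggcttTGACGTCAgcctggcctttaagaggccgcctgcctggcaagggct
Ddc upstream: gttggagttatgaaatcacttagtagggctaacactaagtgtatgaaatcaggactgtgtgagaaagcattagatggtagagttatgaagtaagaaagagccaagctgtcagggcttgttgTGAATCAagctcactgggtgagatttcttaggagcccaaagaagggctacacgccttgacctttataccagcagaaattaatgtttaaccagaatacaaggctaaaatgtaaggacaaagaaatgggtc
Ddc downstream: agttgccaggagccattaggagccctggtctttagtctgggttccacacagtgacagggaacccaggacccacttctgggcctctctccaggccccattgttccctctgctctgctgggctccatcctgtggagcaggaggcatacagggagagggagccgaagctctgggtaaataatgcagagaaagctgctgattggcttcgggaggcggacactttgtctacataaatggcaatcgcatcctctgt

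The motifs, searched on both strands, were those of 4 kinds of factor that are known to act on catecholamine genes. They are TGACGTCA, the cAMP response element, TGANTCA, bound by AP-1 (Fos and Jun proteins), GCGNGGGCG, an Egr1 motif, and GGGCGG, bound by Sp1. The letters of different motifs did not overlap in the stretches shown. The Th stretch held all 4, with the cAMP response element at bases -45 to -38 from the start site. Its AP-1 match lay at -210 to -204, its Sp1 match at -220 to -215, and its Egr1 match at -139 to -131 on the opposite strand. The upstream Ddc stretch held 1 AP-1 match at -129 to -123, and the downstream one held no match. Maoa held 1 Sp1 match at -46 to -41 on the opposite strand. Among 32851 promoter entries of the same length, 1.55% held the cAMP response element, 6.75% the AP-1 motif, 4.70% the Egr1 motif and 32.7% the Sp1 motif. A match describes the letters only.

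Of the 11 probe sets 8 passed the filter on low values and were tested, at least 1 for each of the 6 genes. The other 3 lay near the bottom of the scale. The Maoa probe sets 161714_f_at and 162294_f_at ranged from 14.2 to 220.8 and from 10.3 to 210.7, with 5 of 6 arrays below an intensity of 201.3, the 20th percentile of the whole table. The Sult1a1 probe set 162130_r_at ranged from 17.3 to 104.7, below that level on 6 of 6 arrays. The suffixes f and r mark probe sets that may share probes with related sequences or that were designed under relaxed rules. Some tested probe sets read below carry them too, among them 94516_f_at of Penk and 102363_r_at of Junb.

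None of the 8 tested members was called, that is, had a Benjamini-Hochberg adjusted p under 0.05 in limma over all 7293 tested probe sets, of which 2.52% (184) were called. At an unadjusted p under 0.05 there were 3 of 8, Th and both Pnmt probe sets, against 19.3% of all tested probe sets. The 3 BPH arrays lay wholly above the 3 BPL arrays in 2 of 8, again Pnmt, against 14.9% of all tested probe sets, and wholly below in 0 of 8, against 11.6%. The median log2 difference of the 8 was 0.16, and that of all tested probe sets was 0.03.

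Th, the rate-limiting first enzyme, had BPH intensities of 25099, 21439 and 24862 and BPL intensities of 12618, 9236 and 22493. BPL 1 and BPL 2 lay below every BPH array, while BPL 3 lay above BPH 2, so the strains overlapped by that 1 array. The means were 23799.9 ± 2048 in BPH and 14782 ± 6889 in BPL (SD, n = 3), and their ratio was 1.61. The log2 difference was 0.78 (95% interval 0.16 to 1.41, limma adjusted p = 0.169).

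Ddc, the second enzyme, had the same order as Th on 5 arrays and parted from it on BPL 3. Its BPH arrays had 5596, 3604 and 4329.5, and its BPL arrays 2751, 2607 and 10338. BPL 1 and BPL 2 were the lowest of the 6 arrays, and BPL 3 was the highest, at 3.86 times the mean of the other BPL arrays. The means were 4509.8 ± 1008 in BPH and 5232 ± 4422 in BPL (SD, n = 3), so the BPL spread was nearly as large as its mean. The ratio of the means, 0.862, and the mean log2 difference, 0.08, differed in direction. The 95% interval of -0.98 to 1.14 (limma adjusted p = 0.943) spans changes of either sign, so no difference was detectable with this spread.

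Pnmt, the last enzyme of the pathway and the one that makes adrenaline, stood higher in BPH at both of its probe sets, though neither passed the threshold over all probe sets. At 101719_at the BPH arrays 1, 2 and 3 had intensities of 37217, 30494.5 and 41309, and the BPL arrays 1, 2 and 3 had 19476, 12473 and 25316.5. The lowest BPH array thus lay above the highest BPL array, which was BPL 3. The means were 36340.4 ± 5461 in BPH and 19088 ± 6431 in BPL (SD, n = 3), and their ratio was 1.90. The log2 difference was 0.98 (95% interval 0.43 to 1.52, limma adjusted p = 0.0729).

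The other Pnmt probe set, 161917_i_at, gave the same order of strains. Its BPH arrays had 28295, 30959 and 30153, and its BPL arrays 14184, 7609 and 20543. The BPH arrays were close together, whereas BPL 2 had the lowest value and BPL 3 the highest of the BPL arrays. The means were 29802 ± 1366 in BPH and 14112 ± 6468 in BPL (SD, n = 3), and their ratio was 2.11. The log2 difference was 1.19 (95% interval 0.51 to 1.87, limma adjusted p = 0.077).

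**Figure D1:**
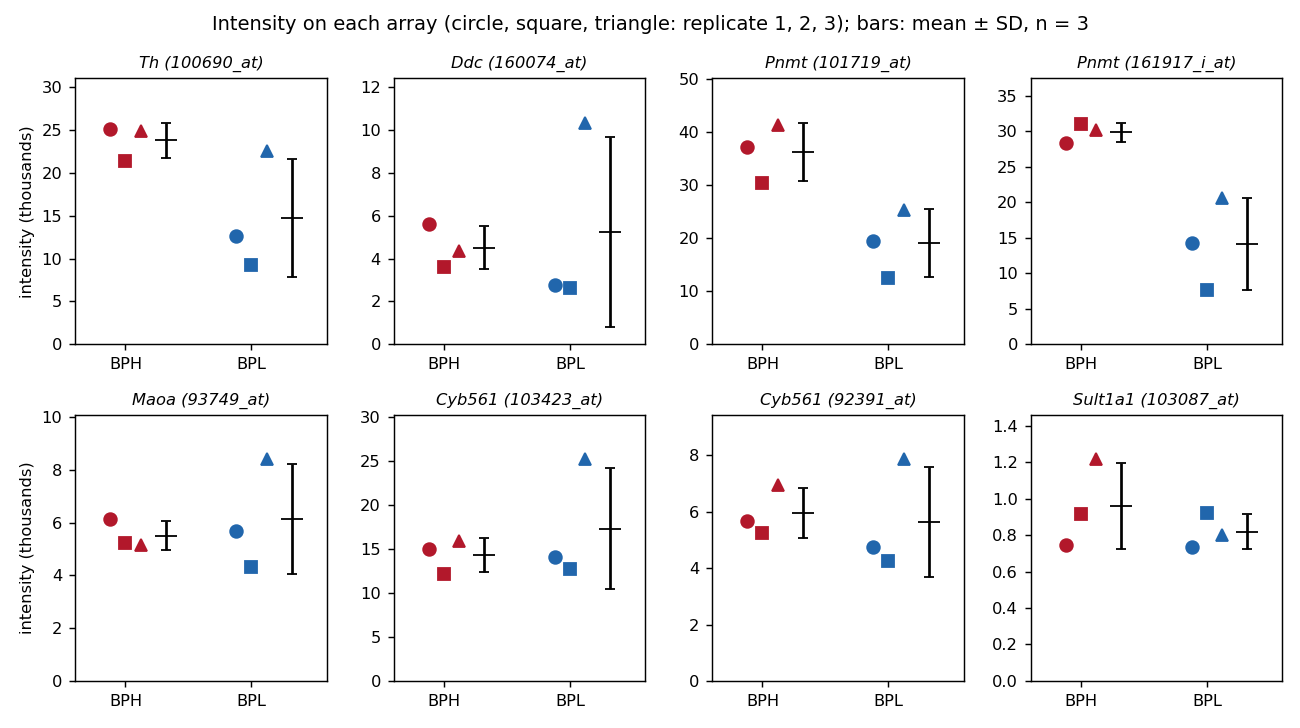
Intensity of each tested probe set (vertical axis, linear, from 0) on the BPH (red) and BPL (blue) arrays, with circles, squares and triangles for replicates 1, 2 and 3 and bars for mean ± SD. The red points of both Pnmt panels lie above all blue points, 1 blue triangle (BPL 3) reaches the red points for Th, and the same triangle is the highest point for Ddc, Maoa and both Cyb561 panels.

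Cyb561, the electron carrier of the granule membrane, had overlapping strains at both probe sets. At 103423_at the BPH arrays had 14989, 12148.5 and 15863, and the BPL arrays 14051, 12709 and 25152. Apart from BPL 3, the 5 arrays of the strains were mixed. The means were 14333 ± 1942 in BPH and 17304 ± 6829.5 in BPL (SD, n = 3), with a log2 difference of -0.21 (95% interval -0.76 to 0.34, limma adjusted p = 0.667). At 92391_at the BPH arrays had 5670.2, 5232 and 6949, and the BPL arrays 4766, 4258 and 7859.6. BPL 1 and BPL 2 lay below the BPH arrays here and BPL 3 above them, with means of 5950.3 ± 892 and 5628 ± 1949 (SD, n = 3). The log2 difference was 0.12 (95% interval -0.39 to 0.64, limma adjusted p = 0.803). The probe sets thus differed in sign, and neither interval excluded 0.

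The breakdown enzymes also overlapped between strains. Maoa, which oxidises noradrenaline and serotonin, had at 93749_at BPH intensities of 6130.2, 5242 and 5164 and BPL intensities of 5673, 4326 and 8396. The lowest and the highest array were both BPL. The means were 5512 ± 537 in BPH and 6131 ± 2073 in BPL (SD, n = 3), with a log2 difference of -0.10 (95% interval -0.61 to 0.40, limma adjusted p = 0.833). Sult1a1, which adds sulfate to phenols including catecholamines, had at 103087_at 745.9, 919.1 and 1216 on the BPH arrays and 737.9, 923.3 and 798.8 on the BPL arrays. Only BPH 3 stood above the range of BPL, and BPL 3 was not raised. The means were 960.4 ± 238 and 820.0 ± 94.5 (SD, n = 3), with a log2 difference of 0.21 (95% interval -0.42 to 0.83, limma adjusted p = 0.726). This was the dimmest tested member, and its mean lay just above the filter level of 668.1.

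Much of the BPL spread came from single arrays. BPL 2 was the lowest array for 6 of the 8 tested members, against 29.5% of all tested probe sets, and BPL 3 the highest for 4 of 8, against 15.0%. BPL 3 exceeded the mean of BPL 1 and BPL 2 by a factor of 2.06 for Th, 1.58 and 1.89 for the Pnmt probe sets, 1.88 and 1.74 for the Cyb561 probe sets, and 1.68 for Maoa. For Sult1a1 the factor was 0.962. Without BPL 3 the log2 difference was 1.14 for Th (limma adjusted p = 0.0131), 1.21 and 1.52 for Pnmt (limma adjusted p = 0.0233 and 0.0166), and 0.73 for Ddc (limma adjusted p = 0.0729). All 3 called members of that fit are Th and Pnmt, in which 361 of all probe sets were called. Cyb561 at 103423_at (0.09) and Maoa (0.15) then changed sign and were not called.

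Leaving out BPL 2 lowered the differences of Th, Pnmt and Ddc. Th then differed by 0.49 and Pnmt by 0.70 and 0.80, the last called (limma adjusted p = 0.044), while Ddc turned to -0.27. In that fit 153 of all 7293 tested probe sets were called. BPH 1 and BPL 2 carried the most skeletal muscle transcripts, with a lower level on BPH 2. Without BPH 1 and BPL 2, Th differed by 0.45, Pnmt by 0.68 and 0.84 and Ddc by -0.43. There 0 of 8 members were called in limma, against 123 of all 7293 tested probe sets. The fluidics station that washed the arrays was shared by BPH 3 and the 3 BPL arrays, while BPH 1 and BPH 2 were on another. Within that station, and likewise with the station as a block, the log2 differences were 0.85 for Th, 0.04 for Ddc, 1.17 and 1.21 for Pnmt, -0.19 for Maoa, -0.06 and 0.36 for Cyb561, and 0.58 for Sult1a1, with none called.

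**Figure D2:**
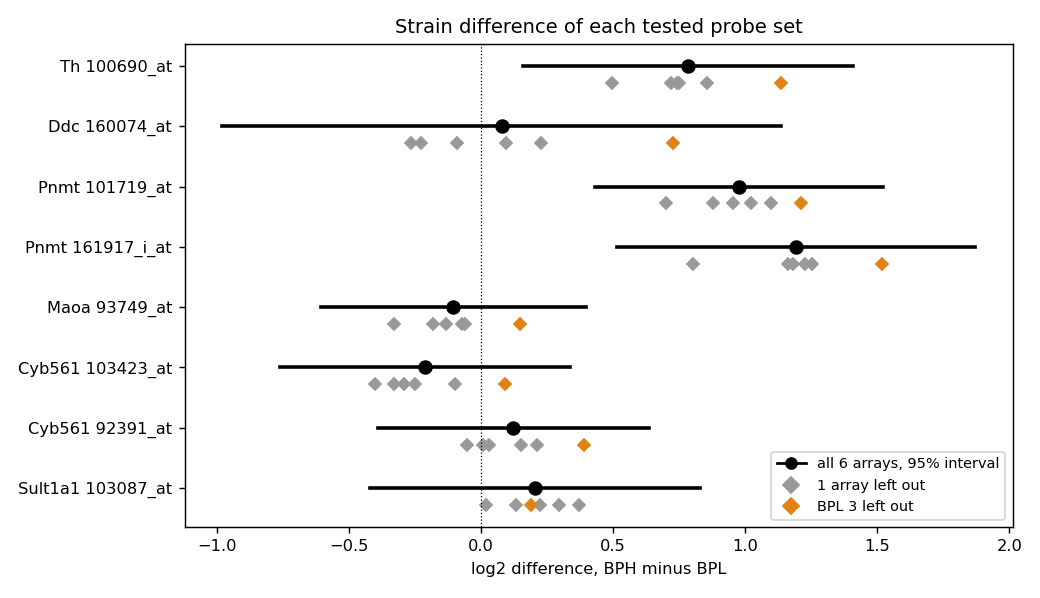
Log2 difference between the strains (horizontal axis) for each tested probe set, with black points and lines for the value and 95% interval over all 6 arrays and diamonds for the value with 1 array left out. Both Pnmt probe sets and Th stay to the right of 0 in every case, and the orange diamonds without BPL 3 are the rightmost for 7 of the 8 probe sets.

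The medulla is a small part of the gland, and in bulk RNA fewer chromaffin cells and less RNA per cell cannot be told apart. Markers of chromaffin cells other than the members were therefore read on the same arrays. Of 11 listed markers 10 were on the array with a tested probe set. All 10 had a positive log2 difference, as had 3044 of 5555 tested genes. The differences ranged from 0.17 (Scg3) to 1.19 (Scg2), with a median of 0.58. The 1 called was the enkephalin precursor gene Penk (94516_f_at, 0.61, limma adjusted p = 0.0472), against 2.43% of tested genes. The summed intensity of the markers ranged from 207365 to 257660 in BPH and from 120777 to 231803 in BPL. Its largest part was the granin gene Chgb, at 106848 to 136926 in BPH and 76912 to 123323 in BPL. Chgb thus overlapped between the strains and differed by 0.19 (limma adjusted p = 0.631). Chromogranin A (Chga), the main soluble granule protein, had 38402, 30376 and 37118 in BPH and 21912, 14261 and 33136 in BPL, the same order of arrays as Th; its other tested probe set, 162192_f_at, differed by -0.05. The mean log2 level of the 10 markers was 12.98, 12.77 and 13.06 on the BPH arrays and 12.19, 12.02 and 13.00 on the BPL arrays, so that BPL 3 lay within the BPH range. The mean differed between the strains by 0.54, beside SDs of 0.15 in BPH and 0.53 in BPL, and the arrays overlapped (exact permutation test, two-sided, p = 0.3, where the smallest p possible is 0.1).

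Markers of other tissue moved with the arrays as well. Of 8 brown fat markers 7 were on the array, and their summed intensity was 64585, 37233 and 50177 in BPH and 140819, 293768 and 101098 in BPL. Within BPL it was thus highest on BPL 2, where the members were mostly lowest, and lowest on BPL 3. The thermogenic gene Ucp1 differed between the strains by -2.68 (limma adjusted p = 0.0137). Markers of fat in general (7 of 9 on the array) overlapped between the strains, summing to 175012 to 214556 in BPH and 155274 to 255918 in BPL. Within BPL their sum was also highest on BPL 2 and lowest on BPL 3. Of 11 skeletal muscle markers, all on the array, the sum reached 126962 on BPH 1 and 160779 on BPL 2. It was 16256 on BPH 2 and 5381 to 7703 on the other arrays. The sum of 8 of 10 cortex markers was 665622 to 779526 in BPH and 668903 to 734310 in BPL, and none of them was called. Schwann cell markers (4 of 6 on the array) summed to 8728 to 9211 in BPH and 11105 to 13094 in BPL, and 6 of 6 fibroblast markers to 65546.5 to 66209 and 53648.5 to 57457. The fibroblast sums differed through Dcn, and without it they overlapped, at 26914 to 31789.5 in BPH and 29369 to 32926 in BPL. Of 7 liver markers 6 were on the array, and their sum of 64612 to 92058 in BPH and 28090 to 30624.5 in BPL was nearly all Cyp2e1, with albumin at 681.2 to 1041. The 7 kidney markers summed to 1617 to 2375 in BPH and 1753 to 2629.9 in BPL. Of these Umod was below the floor on every array, as was the liver marker Fgb, while the kidney markers Slc34a1 (462.2 to 860.9) and Slc12a1 (338.0 to 631.2) were above it on every array. The part of these tissues in the member values was not tested.

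**Figure D3:**
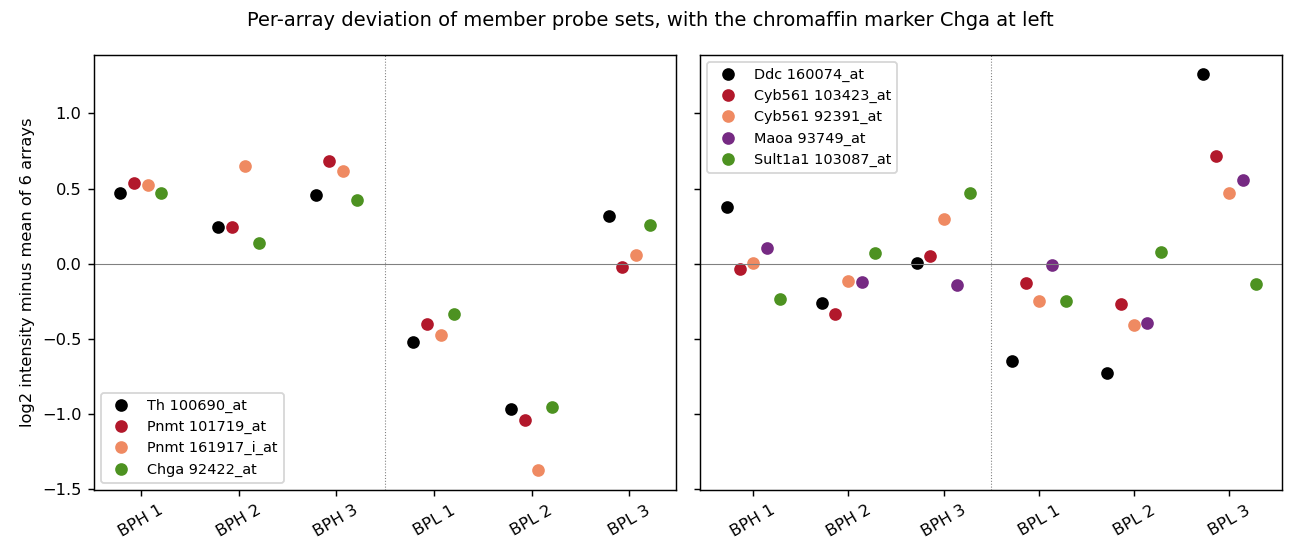
Log2 intensity of each probe set on each array (vertical axis), minus its own mean over the 6 arrays; Th, both Pnmt probe sets and the chromaffin marker Chga are at left, the other tested members at right. On the left, BPL 1 and BPL 2 lie below all BPH arrays, while on the right BPL 3 is the highest array for Ddc, Maoa and both Cyb561 probe sets.

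Set against the mean of the 10 chromaffin markers on the same array, the members fell on both sides of 0. Because the marker mean itself was higher in BPH, the median difference of all 7293 tested probe sets was -0.51 on this scale, so a value near -0.51 is that of a typical probe set. Th and both Pnmt probe sets lay above 0, and those of Maoa (-0.64), Cyb561 (-0.75 and -0.41), Ddc (-0.46) and Sult1a1 (-0.33) lay around that median. The BPH arrays lay wholly above the BPL arrays for 3 of 8 member probe sets, 2 of them of the same gene, against 0.919% of all tested probe sets, and wholly below for 3 of 8, against 18.4%. The subtraction itself lowers the first share and raises the second, from 14.9% and 11.6% without it. A typical probe set did not follow the marker mean, so these shares are no measure for chromaffin transcripts that follow it. With 3 arrays per strain the smallest p an exact permutation test can give is 0.1, so no such difference can pass 0.05, and over the 8 probe sets the smallest adjusted p was 0.133.

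Relative to the markers, Pnmt at 101719_at was at 2.20, 2.12 and 2.27 on the BPH arrays and 2.06, 1.59 and 1.63 on the BPL arrays. The strains did not overlap, and BPL 3 no longer stood apart from BPL 2. The difference was 0.44, and at 161917_i_at it was 0.66 (exact permutation test, two-sided, p = 0.1 for each). Th was at 1.63, 1.62 and 1.54 in BPH and 1.44, 1.15 and 1.45 in BPL, a difference of 0.25 (exact permutation p = 0.1). Against the granin genes Chga, Chgb and Scg2 alone, the Th difference was 0.09 and overlapped (exact permutation p = 0.5), while those of Pnmt were 0.29 and 0.50.

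The arrays of each strain lay close together for Cyb561 on this scale. At 103423_at it was at 0.89, 0.80 and 0.89 in BPH and 1.59, 1.62 and 1.62 in BPL. The BPL arrays, which differed by up to a factor of 1.98 in raw intensity, lay within a few hundredths of each other. The difference was -0.75, and at 92391_at, where raw values overlapped, it was -0.41 (exact permutation p = 0.1 for each). Maoa was at -0.40, -0.42 and -0.73 in BPH and 0.28, 0.06 and 0.03 in BPL, a difference of -0.64 (exact permutation p = 0.1). Ddc differed by -0.46 (exact permutation p = 0.3) and Sult1a1 by -0.33 (exact permutation p = 0.4), with overlapping arrays. With any 1 array left out, the difference ranged from 0.36 to 0.59 and 0.46 to 0.82 for Pnmt, from -0.77 to -0.72 and -0.47 to -0.36 for Cyb561, and from -0.70 to -0.53 for Maoa. It ranged more widely for Th, from 0.15 (without BPL 2) to 0.30, for Ddc, from -0.66 to -0.11 (without BPL 3), and for Sult1a1, from -0.65 (without BPL 3) to -0.05 (without BPL 2; -0.14 without BPH 1).

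**Figure D4:**
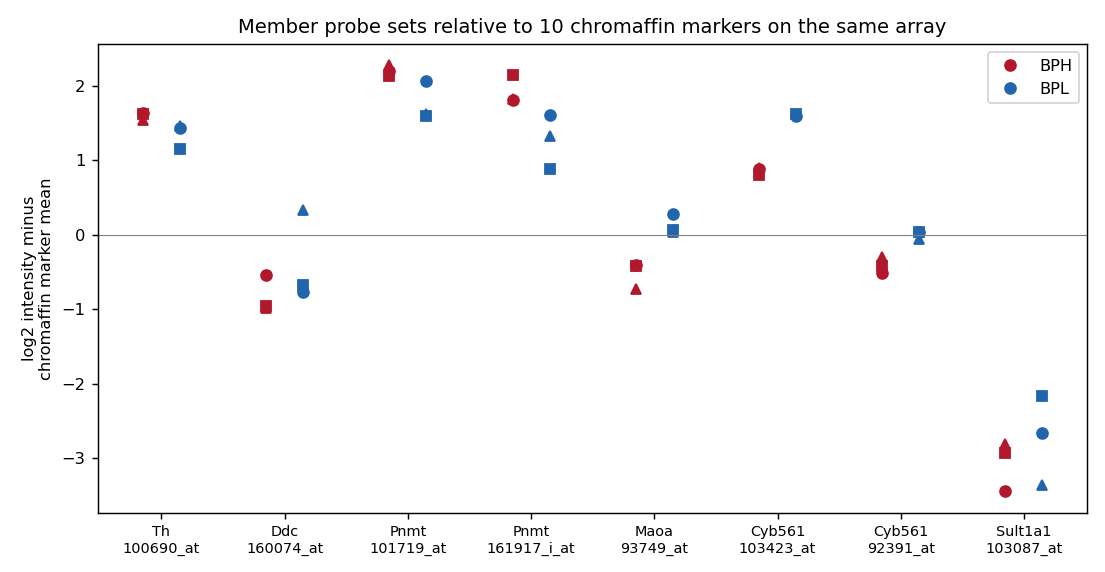
Log2 intensity of each member probe set minus the mean log2 intensity of 10 chromaffin markers on the same array (vertical axis), for BPH (red) and BPL (blue), with circles, squares and triangles for replicates 1, 2 and 3. Red points lie above blue for Th and both Pnmt probe sets and below blue for Maoa and both Cyb561 probe sets; heights of different probe sets are not comparable.

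The genes whose pattern over the 6 arrays was most like that of Pnmt and Th were sought among 6561 tested probe sets that name 1 gene and are no member. Likeness was the root mean square difference of log2 values, each centred on its own mean. For Pnmt at 101719_at the 5 nearest were Armcx2 (0.09), the galectin gene Lgals3 (0.12), Lancl1 (0.14), Peg10 (0.15) and B3gnt2 (0.16). Armcx2, for instance, had 6439.5, 5277 and 6157 in BPH and 3331, 2270.4 and 4514 in BPL. Th stood at 0.18 from Pnmt, and the other Pnmt probe set at 0.22, where they would rank 13 and 34 among the 6561. Many probe sets of other genes were thus nearer to this Pnmt probe set than its own second probe set was. For Th the 5 nearest were B3gnt2 (0.07), Chga (0.09), Cdr2l (0.11), Cmtr2 (0.12) and Cd24a (0.13). Ddc stood at 0.49 from Th and 0.65 from Pnmt, where it would rank 1937 and 3960 among the 6561. None of these neighbours was called, with limma adjusted p-values from 0.0863 for Armcx2 to 0.206 for Chga. Their choice by likeness to Pnmt and Th, themselves not called, largely fixes this, so it is no added result.

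Other genes of the pathway were read from 6 lists, each gene by its brightest tested probe set. Of 57 listed genes 42 were on the array under a single gene name and 33 were tested. Of these 4 were called, all higher in BPH, against 2.43% of 5555 genes by the same rule, and 12 of 33 had an unadjusted p under 0.05, against 19.3% of those genes. Their median log2 difference was 0.17, beside 0.04 for all tested genes.

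The cofactor of tyrosine hydroxylase, tetrahydrobiopterin, depends on enzymes of which 6 of 8 were tested and 0 were called in limma, while 4 had an unadjusted p under 0.05, 2 of them higher and 2 lower in BPH, against the same 19.3%. Gch1, which starts its synthesis, had 2331, 2186 and 2637 in BPH and 1320.2, 1169 and 1768 in BPL. Its arrays did not overlap, and its log2 difference was 0.77 (limma adjusted p = 0.0776). Qdpr, which recycles the cofactor, differed by 0.41, and Pts, of its synthesis, and Pcbd2, of its recycling, by -0.45 and -0.40.

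Of 8 further breakdown genes 4 were tested, and the aldehyde dehydrogenase gene Aldh1a1 was the 1 called, against 2.43% of all tested genes. Aldehyde dehydrogenases oxidise the aldehydes that monoamine oxidase leaves. Aldh1a1 at 100068_at had 24879, 17966 and 15323 in BPH and 4828, 4401 and 8630.2 in BPL. The difference was 1.74 on the log2 scale (SE 0.27, limma adjusted p = 0.0137), and 1.43 within the shared station (limma adjusted p = 0.393). Its other probe set, 161956_at, lay below the filter at 453.5 to 762.5 and did not separate the strains, and a near-identical gene, Aldh1a7, may share probes. Aldh2 (0.17), Aldh3a2 (0.07) and the aldehyde reductase gene Akr1a1 (-0.03) were not called. Other tested probe sets differed by 0.31 (96057_at) and 0.16 (161997_f_at) for Aldh2 and by 0.39 (161401_f_at) for Aldh3a2, and none was called.

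Genes that supply ascorbate and copper for dopamine beta-hydroxylase were not called in limma (0 of 4 tested). At an unadjusted p under 0.05 there was 1 of the 4, against 19.3% of all tested genes. The ascorbate transporter gene Slc23a2 had 7529, 8955 and 8047 in BPH and 6775, 4709.5 and 5706 in BPL, with no overlap and a log2 difference of 0.53 (limma adjusted p = 0.11). The copper carriers Atp7a (0.22), Atox1 (-0.26) and Slc31a1 (0.09) overlapped between the strains. Among genes that supply or clear the methyl donor of Pnmt, 0 of 3 tested were called in limma. Of these 3, 1 had an unadjusted p under 0.05, against the same 19.3%. Mat2b, a subunit of the enzyme that makes the donor, differed by 0.31, Ahcyl1 by -0.28 and Ahcy by 0.16. Other tested probe sets of these genes went partly the other way, and none was called. They differed by -0.76 for Mat2b (94468_at) and by 0.03 (96024_at) and -0.55 (96026_at) for Ahcy. Of the amine transporters only Slc22a2 was tested (-0.19, limma adjusted p = 0.778).

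Transcription factors known to act on these genes or in chromaffin cells made up the last list, with 15 of 23 tested. Of the 15, 3 were called and 5 had an unadjusted p under 0.05, against 2.43% and 19.3% of all tested genes. All 3 called genes are induced early after stimulation of a cell. The orphan receptor gene Nr4a1 had 36152, 51199 and 54763 in BPH and 8780.1, 6723 and 12716 in BPL, a log2 difference of 2.36 (limma adjusted p = 0.00246) and of 2.59 within the shared station (limma adjusted p = 0.0727, or 0.0383 with the station as a block). The AP-1 members Fos and Junb differed by 1.68 (limma adjusted p = 0.0335) and 1.34 (limma adjusted p = 0.00633), and within the station by 1.74 and 1.33 (limma adjusted p = 0.459 and 0.192). Fos had 4492, 5721 and 5368 in BPH and 953.1, 1637 and 2686 in BPL. Junb at 102363_r_at had 4357, 6401 and 5249.8 in BPH and 1993, 1896 and 2396 in BPL. Its other tested probe set, 102362_i_at, differed by 2.90. At the called probe sets of these 3 genes every BPH array lay above every BPL array, as in 14.9% of all tested probe sets. The genes were named here because they were called, so this separation is no added result. The other Fos probe set, 161716_at, lay below the filter, and its strains overlapped (262.5 to 621.2 in BPH, 265.4 to 379.7 in BPL).

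The other 2 factors at an unadjusted p under 0.05 were not called and went opposite ways. Crem, of the cAMP pathway, differed by 0.82 (limma adjusted p = 0.201). Tfap2a, the gene of AP-2 alpha, had 591.8, 544.1 and 577.4 in BPH and 982.1, 959.6 and 789.7 in BPL, a difference of -0.67 (limma adjusted p = 0.233), with every BPL array above every BPH array. Egr1, known as an activator of Pnmt, had 4312, 6270.4 and 10760.3 in BPH and 4954, 3415.5 and 6527 in BPL, with overlapping arrays and a log2 difference of 0.47 (limma adjusted p = 0.476). Egr1 was named after its values were seen, because its motif was searched. Without BPH 2 only Nr4a1 and Junb of the 4 called pathway genes were called, and the Fos call was lost without any of BPH 1, BPH 2, BPH 3 or BPL 2. The Aldh1a1 call was lost without BPH 1, BPH 2 or BPL 1, with limma adjusted p-values of 0.0509, 0.0593 and 0.0572. Without BPH 1 and BPL 2, the arrays with the most skeletal muscle transcripts, the Aldh1a1 and Fos calls were lost (limma adjusted p = 0.0512 and 0.0987). With no filter on low values none of the 4 was called (limma adjusted p = 0.0807 to 0.217), and with no intensity trend the Fos call was lost (limma adjusted p = 0.0807).

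**Figure D5:**
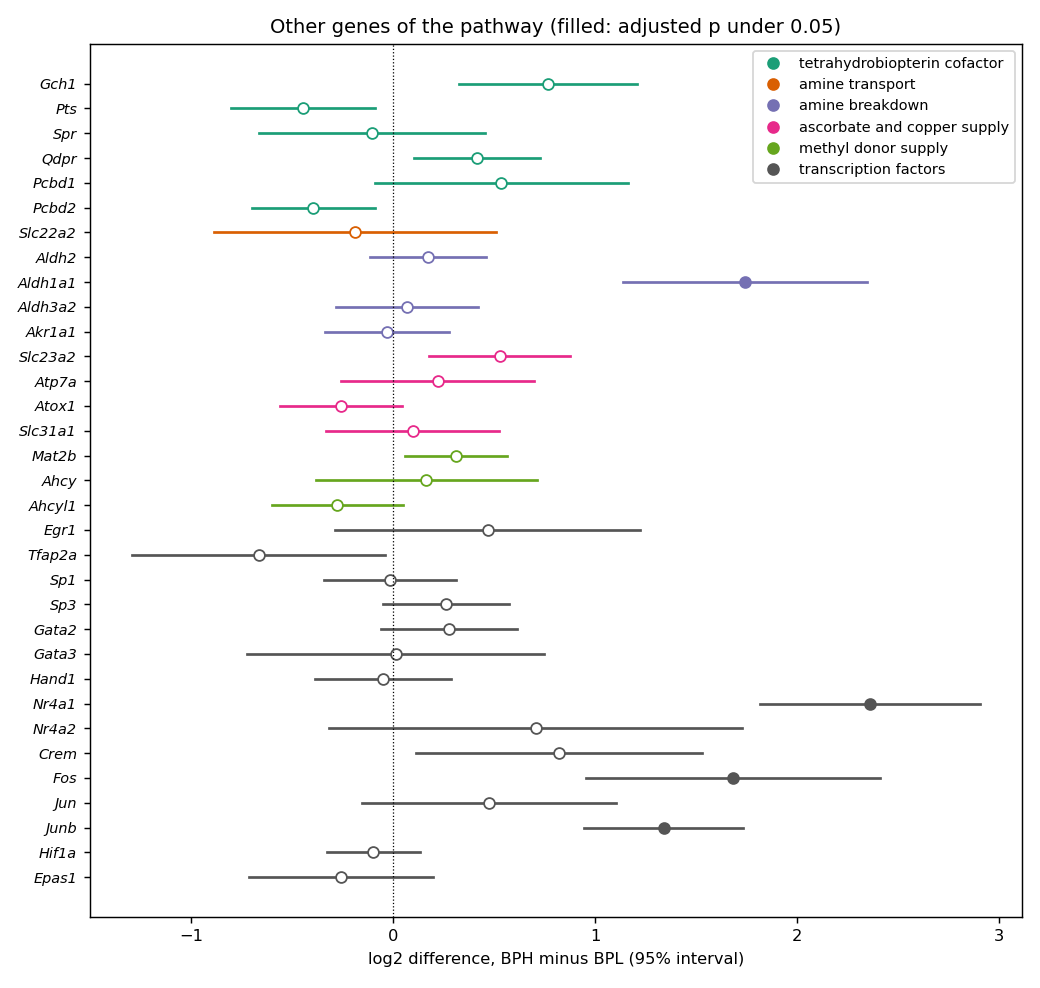
Log2 difference between the strains (horizontal axis, with 95% interval) for the 33 tested genes of the 6 pathway lists, coloured by list and filled where the adjusted p was under 0.05. The 4 filled points, Aldh1a1, Nr4a1, Fos and Junb, all lie to the right of 0, and genes of the cofactor list lie on both sides of it.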

How the data were processed

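Total RNA of adrenal glands was measured on 6 Affymetrix MG_U74Av2 arrays, 3 per strain, grouped by their titles. Each probe set has 1 deposited intensity per array, not log-transformed. The software and normalization the authors used are not given in the sources used here, but the 2% trimmed mean of the deposited intensity lay between 2501.3 and 2501.5 on every array, with medians of 1003.5 to 1114.7. Between 18.6% and 22.4% of values per array were below the floor, near the 20% that its definition as the 20th percentile sets. Having 3 arrays per strain limits precision. The fluidics station was read from the deposited array records.

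Before log2 was taken, intensities were floored at 201.3, the 20th percentile over all arrays. Tests covered the 7293 probe sets with a mean log2 value at or above that of the 40th percentile (668.1), without the 66 controls. BPH and BPL were compared with limma 3.58.1 in R 4.3.3 (lmFit, eBayes with an intensity trend, two-sided, Benjamini-Hochberg over all tested probe sets, threshold 0.05), checked on simulated data. Genes were named from GEO's platform annotation, with symbols updated through RefSeq for 10839 probe sets. Values relative to chromaffin markers are a probe set's log2 value minus the mean of 10 markers on the same array, compared by an exact permutation test.

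The members, lists and tests were chosen with earlier results of these data known. Named were every member, the called genes and up to 4 genes with the smallest p in each pathway list, and the 5 probe sets nearest to Pnmt and to Th. Alternatives were other scalings, floors, filters and variance settings, the station or the replicate number as a block, and leaving out each array. Leaving out both arrays with skeletal muscle transcripts was chosen after seeing the data. Same-numbered arrays did not deviate together (r = -0.22, -0.08 and 0.01 over tested probe sets), so the numbers were not taken to pair them.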

Additional observations from a re-analysis of the deposited data

How the results depend on the processing

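The sign of the difference held for Th, both Pnmt probe sets and Sult1a1 under every alternative run (18 each, 17 for Sult1a1, which the filter at the 60th percentile removes). Their adjusted p-values in limma ranged from 0.0131 to 0.752 for Th, 0.0233 to 0.517 and 0.0166 to 0.654 for Pnmt, and 0.590 to 0.982 for Sult1a1. With 1 array left out, the log2 difference ranged from 0.49 to 1.14 for Th, from -0.27 to 0.73 for Ddc, from 0.70 to 1.21 and 0.80 to 1.52 for Pnmt, from -0.33 to 0.15 for Maoa, from -0.40 to 0.092 (103423_at) and -0.051 to 0.39 (92391_at) for Cyb561, and from 0.02 to 0.37 for Sult1a1. Called members then numbered 0 to 3 (1 without BPL 2, 3 without BPL 3), called pathway genes 2 to 5 and called probe sets 42 to 361. The last count, 184 over all arrays, became 83, 42 and 49 when BPH 1, BPH 2 or BPH 3 was dropped. It became 94, 153 and 361 when BPL 1, BPL 2 or BPL 3 was dropped. It was 52 with no filter, 83 with no intensity trend, 18 under the station block and 7 within the shared station. Pathway calls, 4 in all, fell to 0 with no filter, 1 under the station block and 0 within the station. With no intensity trend 3 remained, without Fos. The cause of these shifts was not tested. The replicate number as a block gave 124 called probe sets and 1 called member, Pnmt at 101719_at (0.98, adjusted p = 0.0304). Leaving out both arrays with the most skeletal muscle transcripts was an alternative chosen after seeing the data. There Ddc (-0.43) and Cyb561 at 92391_at (-0.022) changed sign, as did Sult1a1 relative to the chromaffin markers (0.14).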
